A study of Mus musculus with 26 samples.

Results

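The 4 RNA sequencing libraries described here follow C2C12 cells, a mouse skeletal myoblast line, out of growth medium and into differentiation when Mettl3 is repressed. They were chosen by their labels as Cas9M3 in growth medium (GM, also labelled day 0) and Cas9M3 at day 3 of differentiation (D3), each with replicates 1 and 2. These 4 belong to 26 samples in all, and the 8 libraries of the knockdown table also hold Ctrl GM and Ctrl D3, again 2 libraries each. Growth medium contained fetal bovine serum. Cells were grown to confluence and then moved to a medium with horse serum, so GM and D3 differ in serum, in confluence and in time, which cannot be told apart. Cas9M3 cells carried a lentiviral construct in which the human ubiquitin C promoter drives dCas9-KRAB, a Cas9 that does not cut and is fused to a transcriptional repressor, beside guide RNAs against the Mettl3 promoter. They were selected as a stable, puromycin-resistant population, and neither the guides sequenced nor the construct in Ctrl cells is stated. The design text of the series calls the cells knockout derivatives, whereas the construct is one for knockdown. The study's general statement on replicates speaks of independent biological samples in larger numbers than the 2 libraries of a group, and nothing says of these libraries that they came from separate cultures, so p-values measure the spread between libraries, which may be technical.

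When serum is withdrawn from confluent myoblasts, they normally leave the cell cycle, turn on the myogenic factors Myod1 and Myog, fuse and build sarcomeres. Leaving the cycle is seen in RNA as a loss of transcripts for DNA replication and mitosis, many of which are controlled through E2F sites and through the CHR element bound by the DREAM complex. Mettl3 is the catalytic subunit of the enzyme that methylates adenosine in messenger RNA (m6A), a mark that shortens the life of many transcripts and that helps cells to distinguish their own RNA from foreign RNA. In the interferon response, type I interferon drives transcription factors onto antiviral genes, and cytosolic sensors of foreign RNA can start it.

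Values are FPKM, fragments scaled for gene length and library size as deposited, and are given for replicate 1 and then replicate 2. Mettl3 itself (chr14:52294841-52305128, minus strand of GRCm38) stood at 0.331 and 0.118 FPKM in Cas9M3 GM and at 0.148 and 0.0805 FPKM in Cas9M3 D3, against 4.70 and 5.65 FPKM in Ctrl GM and 4.68 and 5.15 FPKM in Ctrl D3. Every Cas9M3 library was thus far below every Ctrl library, and at D3 the difference in log2(FPKM + 0.1) was -4.56 with an adjusted p of 0.019. Tox4, whose exons share sequence with Mettl3 on the opposite strand, ranged from 8.72 to 11.2 FPKM over the 8 libraries. Whether counting used strand is not stated, so reads of overlapping exons, here and in the genes named below with an overlap, cannot be assigned to one gene for certain. Within Cas9M3 cells, Mettl3 did not pass the test between D3 and GM (log2 difference -0.53, SE 0.40, adjusted p 0.72). The other m6A writers, erasers and readers lay near 0, with a median log2 difference of -0.05 over the 21 tested members of 22 listed, Mettl3 included, and none called.

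The 4 Cas9M3 libraries implied 15090000 to 29560000 reads on genes, estimated from the steps of low FPKM values. In all 8 libraries, those numbered 1 had 0.413% to 0.537% of these reads on ribosomal RNA loci and those numbered 2 had 8.23% to 28.7%. The replicates of Cas9M3 GM stood further apart than those of Cas9M3 D3. Their differences in log2 value had a SD of 0.973 over genes in GM and 0.594 at D3, and 16.7% of genes differed by at least 1 log2 unit in GM against 5.22% at D3. Because of this split, each group of genes below is also described within replicate number, as the change from GM 1 to D3 1 and from GM 2 to D3 2. Among markers fixed for the cell identity, 7 of 8 skeletal myoblast genes were tested and their summed level was 90.4 and 34.4 FPKM in GM and 73.4 and 72.9 FPKM at D3. The 7 tested of 8 differentiating muscle markers summed to 98.8 and 4.50 FPKM in GM and 20.4 and 15.3 FPKM at D3. Of 7 smooth muscle markers 6 were tested, and they summed to 1120 and 790 FPKM in GM and 1470 and 1831 FPKM at D3, mostly from Acta2, the smooth muscle actin. Of 8 fibroblast markers 5 were tested, with sums of 216 and 252 FPKM in GM and 338 and 383 FPKM at D3, mostly from Col3a1, a fibrillar collagen. Both of these sums were above that of the myoblast markers and higher at D3 than in GM, and their part in the results below was not tested. Of 8 adipocyte markers 3 were tested, as were 3 of 7 osteoblast markers. None of 7 endothelial markers reached the level for testing, nor did more than 2 of 8 leukocyte, 1 of 6 neural or 1 of 5 epithelial markers.

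Of 13824 genes with at least 0.5 FPKM in 2 libraries, 4 (0.0289%) differed between Cas9M3 D3 and GM at an adjusted p of at most 0.05, by limma over the 8 libraries with Benjamini-Hochberg adjustment. The 2 genes that rose (0.0145%) were Mucl1 and Msln, and the 2 that fell (0.0145%) were Rrm2 and Socs2. All 4 also passed the log2 threshold of 2. At an unadjusted p under 0.05 there were 849 genes higher at D3 (6.14%) and 899 lower (6.5%), together 12.6% of genes. A share near 0.05 would pass this threshold with no change at all, so these are not counts of changed genes. With 2 libraries against 2, an exact two-sided permutation test of a single gene cannot give less than 0.333. When the replicate number was entered as a block, 9 genes were called, namely those 4 with Mcm3, Fbln7, Mup5, Tspan8 and Gm50321. All 4 calls were lost without either Cas9M3 D3 library, without either Ctrl D3 library or without Cas9M3 GM replicate 1, and 2 were called without Cas9M3 GM replicate 2. Conversely, 502 and 494 genes were called without Ctrl GM replicate 1 or 2, the pair of replicates that differed most (SD 1.30 over genes).

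Mucl1, which encodes a small mucin-like secreted protein, stood at 0.0398 and 0 FPKM in Cas9M3 GM and at 11.7 and 10.9 FPKM at D3 (chr15:103751919-103755469, minus strand). It went from at or near no reads to a moderate level in both replicates, and the log2 difference of 6.59 (SE 0.32, adjusted p 0.0065) depends on the pseudocount and is no bound on the fold. Ctrl cells gave 0.0395 and 0 FPKM in GM and 9.06 and 9.12 FPKM at D3, so the gene rose there too (log2 difference 6.28, adjusted p 0.0044). Msln, which encodes the cell surface glycoprotein mesothelin, went from 4.07 and 4.44 to 28.0 and 31.9 FPKM (chr17:25748613-25754378, minus strand). This was a log2 difference of 2.78 (SE 0.20, adjusted p 0.024), and in Ctrl cells it was 1.96 (adjusted p 0.022). The Msln libraries of GM and D3 were well separated in both lines.

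Rrm2, the regulated subunit of ribonucleotide reductase that makes deoxynucleotides for DNA synthesis, fell from 182 and 156 FPKM in Cas9M3 GM to 22.0 and 21.7 FPKM at D3 (chr12:24708241-24714146, plus strand). The log2 difference was -2.94 (SE 0.17, adjusted p 0.009), and it was -3.04 within replicate 1 and -2.84 within replicate 2. In Ctrl cells Rrm2 fell from 121 and 127 to 53.9 and 52.7 FPKM, a log2 difference of -1.21 (adjusted p 0.039). The 2 lines therefore shared the direction, and the Cas9M3 D3 libraries ended lowest. Socs2, a feedback inhibitor of growth hormone and cytokine signalling, fell from 7.38 and 6.75 to 1.09 and 0.978 FPKM (chr10:95385362-95417180, minus strand; log2 difference -2.66, SE 0.22, adjusted p 0.048). In Ctrl cells it fell from 5.36 and 6.87 to 2.15 and 1.76 FPKM (log2 difference -1.59, adjusted p 0.039).

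The genes just outside the threshold held further replication factors and secreted proteins. Inmt, an indolethylamine N-methyltransferase, stood at 0.158 and 0.102 FPKM in GM and 5.13 and 5.53 FPKM at D3 (log2 difference 4.57, adjusted p 0.061). Fbln7, a matrix fibulin, stood at 41.9 and 63.3 FPKM in GM and 259 and 276 FPKM at D3 (adjusted p 0.062, blocked 0.047), while Ctrl cells had 47.8 and 47.5 FPKM in GM and 65.0 and 68.5 FPKM at D3. Tspan8, a tetraspanin of the cell surface, stood at 0.0745 and 0.224 FPKM in GM and 2.99 and 3.96 FPKM at D3 (adjusted p 0.069, blocked 0.047). In each of these genes both D3 libraries were above both GM libraries. Mup5 belongs to a family of near-identical urinary protein genes, whose reads may have been split among copies, so its level is uncertain.

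**Figure D1:**
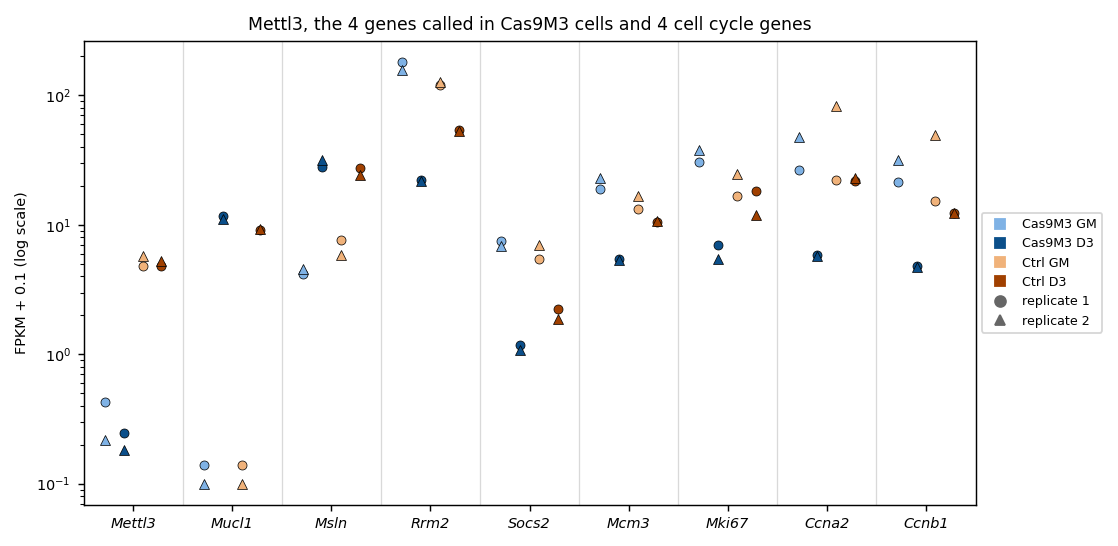
FPKM + 0.1 on a log axis for Mettl3, the 4 genes called between Cas9M3 D3 and GM, and 4 genes of replication and mitosis, with 1 point for each of the 8 libraries (circle, replicate 1; triangle, replicate 2). Mettl3 is low in the 4 Cas9M3 libraries, and the Cas9M3 D3 points of Rrm2, Mcm3, Mki67, Ccna2 and Ccnb1 lie below those of all other groups.

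Of the lists examined, those for DNA replication and cell division were the most uniform, and both were lower at D3. Of 42 DNA replication and licensing genes listed, all were tested, and 41 had both Cas9M3 D3 libraries below both GM libraries, where 24.1% of all genes did. Within both replicate numbers 41 were lower, where 33.2% of all genes were. At an unadjusted p under 0.05 there were 35 lower, where 6.5% of all genes were. In Ctrl cells the median log2 difference of the list was -0.70, with -0.25 within replicate 1 and -1.11 within replicate 2. In Cas9M3 cells it was -1.70, against -0.00 for all genes tested, with -1.49 within replicate 1 and -1.92 within replicate 2. Only Rrm2 was called over all genes. In bulk libraries fewer cycling cells and less RNA of these genes per cell cannot be told apart.

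Mcm3, a subunit of the helicase that licenses replication origins, stood at 18.9 and 23.1 FPKM in GM and at 5.32 and 5.21 FPKM at D3 (log2 difference -1.97, SE 0.19, adjusted p 0.062, blocked 0.047). Mcm2, a further subunit of that helicase, stood at 10.6 and 12.5 FPKM in GM and 3.42 and 3.01 FPKM at D3, with a log2 difference of -1.81. Mcm5, another, stood at 19.8 and 27.1 FPKM in GM and 3.59 and 3.90 FPKM at D3, with a log2 difference of -2.60. The D3 values of each helicase gene lay close together, well below the GM values. Uhrf1, which carries DNA methylation through replication, stood at 15.5 and 20.4 FPKM in GM and 3.63 and 2.89 FPKM at D3 (log2 difference -2.42, adjusted p 0.067). Tk1, the thymidine kinase of S phase, stood at 18.5 and 42.0 FPKM in GM and 4.31 and 5.95 FPKM at D3, with exons that overlap those of Afmid on the other strand. Pcna, the sliding clamp of DNA polymerase, was among the smaller differences, at 40.5 and 61.7 FPKM in GM and 22.8 and 23.5 FPKM at D3 (log2 difference -1.11, adjusted p 0.22). The exception was Orc6, an origin recognition subunit with exons that overlap Vps35, at 18.5 and 33.6 FPKM in GM and 20.5 and 21.7 FPKM at D3, which was higher within replicate 1 and lower within replicate 2.

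All 48 mitosis and spindle genes were tested, and for all 48 both Cas9M3 D3 libraries lay below both GM libraries. Their median log2 difference was -2.28, with -1.98 within replicate 1 and -2.63 within replicate 2. In Ctrl cells the median was -0.97, with -0.20 and -1.87 within the replicates. In Cas9M3 cells 46 were lower at an unadjusted p under 0.05, where 6.5% of all genes were. None was called at an adjusted p of 0.05 by limma, with or without the replicate block. Aurkb, the kinase of the chromosomal passenger complex, stood at 16.2 and 28.8 FPKM in GM and 2.45 and 3.12 FPKM at D3, a log2 difference of -2.92 (SE 0.59, adjusted p 0.12). Espl1, the separase that cuts cohesin at anaphase, stood at 4.28 and 7.96 FPKM in GM and 0.865 and 0.770 FPKM at D3 (log2 difference -2.70). Both were lowest in the D3 libraries, which again lay close to each other.

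Mki67, the proliferation antigen Ki-67, stood at 30.7 and 37.9 FPKM in GM and at 6.90 and 5.33 FPKM at D3 (log2 difference -2.47, SE 0.30, adjusted p 0.067). Ccna2, the cyclin of S phase and early mitosis, stood at 26.2 and 47.5 FPKM in GM and 5.72 and 5.65 FPKM at D3, with exons that overlap Exosc9 on the other strand. Ccnb1, the mitotic cyclin, stood at 21.3 and 31.7 FPKM in GM and 4.67 and 4.65 FPKM at D3. The GM library numbered 2 was the higher one for each of these 3 genes. Bub1b, a spindle checkpoint kinase, stood at 13.8 and 24.8 FPKM in GM and 2.79 and 2.88 FPKM at D3. Cdc20, the activator of the anaphase-promoting complex with the highest level of the list, stood at 35.7 and 68.7 FPKM in GM and 8.24 and 9.80 FPKM at D3, and its exons overlap those of Elovl1 on the other strand. The smallest difference was that of Bub3, a checkpoint protein, at 11.8 and 16.3 FPKM in GM and 8.84 and 9.73 FPKM at D3 (log2 difference -0.57). For 88 of the 90 replication and mitosis genes the growth medium library numbered 1 was below that numbered 2, in Cas9M3 and also in Ctrl cells. The starting level thus differed by replicate, the median log2 gap being -0.64 in Cas9M3 GM and -1.28 in Ctrl GM, whereas it was -0.05 at Cas9M3 D3.

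The regulators upstream of replication were more mixed. Among 19 tested G1 to S drivers the median log2 difference was -0.92. Within both replicates 16 were lower and 2 higher, where 33.2% and 32.9% of all genes were. At an unadjusted p under 0.05 there were 11 lower and 1 higher, where 6.5% and 6.14% of all genes were. Mybl2, the B-Myb subunit that activates mitotic genes, stood at 3.67 and 6.07 FPKM in GM and 0.806 and 0.750 FPKM at D3 (log2 difference -2.46, adjusted p 0.067). E2f7, an atypical E2F that represses transcription, stood at 2.86 and 4.35 FPKM in GM and 0.617 and 0.642 FPKM at D3. E2f8, its close relative, stood at 2.57 and 4.45 FPKM in GM and 0.804 and 0.575 FPKM at D3. In Ctrl cells E2f8 stood at 1.90 and 2.04 FPKM in GM and higher, at 5.07 and 3.71 FPKM, at D3, and the log2 difference between the changes was -3.26 (unadjusted p 0.00039). E2f2, an activating E2F, stood at 1.12 and 0.770 FPKM in Cas9M3 GM and 0.316 and 0.321 FPKM at D3 and rose from 0.850 and 0.594 to 4.72 and 3.90 FPKM in Ctrl cells (adjusted p 0.037). Myc, a growth-promoting factor, stood at 26.4 and 28.9 FPKM in GM and 14.2 and 14.9 FPKM at D3 (log2 difference -0.92, adjusted p 0.081), and it fell in Ctrl cells (log2 difference -1.07, adjusted p 0.039).

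The member that ran against this list was Ccnd2, a D-type cyclin, at 1.53 and 0.781 FPKM in GM and 5.72 and 4.25 FPKM at D3 (log2 difference 2.07, adjusted p 0.13). Genes of cell cycle exit had a median log2 difference of 0.27 over 22 tested members. At an unadjusted p under 0.05 there were 2 higher, where 6.14% of all genes were. Within both replicates 10 were higher and 3 lower, against 32.9% and 33.2% of all genes, and the lowest difference was -1.27. The 3 members named next were all higher, and Cdkn1a and Cdkn1b were chosen after their values were seen. Cdkn1a, the p21 inhibitor, stood at 54.4 and 49.2 FPKM in GM and 59.7 and 65.2 FPKM at D3 (log2 difference 0.27, adjusted p 0.86), and at 44.2 and 21.4 FPKM in GM and 102 and 97.2 FPKM at D3 in Ctrl cells. Cdkn1b, the p27 inhibitor, stood at 19.2 and 18.9 FPKM in GM and 26.6 and 24.8 FPKM at D3 (log2 difference 0.43). Gadd45a, a stress-induced arrest factor, had the largest difference of the list, from 5.53 and 4.63 to 21.1 and 21.3 FPKM (log2 difference 2.04, adjusted p 0.1). Replication-dependent histones, whose messages mostly lack a poly(A) tail, differed in sign by replicate, with medians over 20 tested members of 0.89 within replicate 1 and -1.17 within replicate 2.

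The promoters of these genes were searched for short motifs. Promoters of 300 bases, from 250 before to 50 after the start, were taken from RefSeq on GRCm38.p6 and matched 9588 of the 13824 tested genes by symbol. Both strands were searched, and overlapping matches were allowed. The letters TTTGAA, the core of the CHR element, were in 29 of the 39 mitosis promoters (74.4%) and in 11.9% of all. With the 250 bases before the start alone these shares were 35.9% and 10.5%, so in 14 of the 29 mitosis promoters with a match it lies before the annotated start. The letters CCAAT, bound by NF-Y, were in 76.9% of the mitosis promoters, in 60.6% of the 33 replication promoters and in 39.2% of all. They were not particular to these lists. CCAAT was also in 78.3% of the 23 cholesterol synthesis promoters, whose list had a median log2 difference of -0.31, and in 57.1% of the 7 myosin promoters. The letters TTNGCGC, from the E2F motif, were in 30.3% of the replication promoters and 11.3% of all. A match is only a match of letters. Shown are Rrm2, the one called gene with a promoter in the table, Mcm3, the helicase gene nearest to the threshold, and Cdc20, the most abundant mitosis gene, with CCAAT or TTTGAA or TTNGCGC on either strand in capitals. They are at chr12:24708004-24708303, plus strand, at chr1:20820263-20820562, minus strand and at chr4:118437294-118437593, minus strand, each written 5′ to 3′ on the strand of its gene.
Rrm2: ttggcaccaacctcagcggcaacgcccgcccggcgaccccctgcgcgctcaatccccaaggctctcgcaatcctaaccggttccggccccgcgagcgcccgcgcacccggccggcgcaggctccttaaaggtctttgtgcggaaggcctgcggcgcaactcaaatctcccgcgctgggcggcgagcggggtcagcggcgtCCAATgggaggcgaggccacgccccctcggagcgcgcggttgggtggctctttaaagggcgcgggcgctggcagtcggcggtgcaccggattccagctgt
Mcm3: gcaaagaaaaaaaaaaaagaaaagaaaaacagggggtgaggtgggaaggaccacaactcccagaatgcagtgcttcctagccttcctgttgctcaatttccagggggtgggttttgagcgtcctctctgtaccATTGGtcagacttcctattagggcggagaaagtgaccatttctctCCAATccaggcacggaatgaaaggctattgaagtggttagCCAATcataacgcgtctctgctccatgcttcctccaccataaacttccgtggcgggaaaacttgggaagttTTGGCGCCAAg
Cdc20: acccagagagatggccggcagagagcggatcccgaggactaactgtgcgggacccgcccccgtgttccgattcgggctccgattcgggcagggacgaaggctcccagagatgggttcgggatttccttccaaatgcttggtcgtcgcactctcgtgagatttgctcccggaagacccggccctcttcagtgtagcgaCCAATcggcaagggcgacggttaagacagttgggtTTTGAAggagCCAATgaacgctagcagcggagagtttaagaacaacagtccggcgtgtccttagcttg

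In the Rrm2 promoter the capitals mark 1 CCAAT match and no other of these motifs. The Mcm3 promoter holds 3 CCAAT matches and 2 overlapping matches to TTNGCGC at its 3′ end. The Cdc20 promoter holds 2 CCAAT matches with TTTGAA between them.

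The interferon response lay in the other direction and had the highest median of the 31 gene lists. Of 36 genes listed, 33 were tested, and for 32 both Cas9M3 D3 libraries lay above both GM libraries, where 23.9% of all genes did. The same 32 genes were higher within both replicate numbers, where 32.9% of all genes were. At an unadjusted p under 0.05 there were 28 higher, where 6.14% of all genes were. The median log2 difference was 1.73, and none was called at an adjusted p of 0.05, with or without the replicate block. In Ctrl cells the median of the same genes was 0.11. Comparing the lines at D3 alone, 11 of the 33 were called higher in Cas9M3 cells, where 1.29% of all genes were, and none lower.

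Ifit3 and Ifit1 encode antiviral proteins that bind foreign RNA or each other. Ifit3, with the largest log2 difference of the list, stood at 2.02 and 25 FPKM in Cas9M3 GM and at 248 and 237 FPKM at D3 (log2 difference 5.06, SE 1.13, adjusted p 0.14), while Ctrl cells had 1.57 and 5.46 FPKM in GM and 12.5 and 14.4 FPKM at D3. The lines differed in Ifit3 at D3 by 4.17 on the log2 scale, without a call (adjusted p 0.12 by limma). Ifit1 stood at 1.83 and 18.5 FPKM in GM and 112 and 98.4 FPKM at D3 (log2 difference 4.13, SE 1.09, adjusted p 0.19). In both genes the GM library numbered 1 was far below that numbered 2, and the D3 libraries lay together above both. Ifit1 in Ctrl cells stayed at 0.225 and 0.975 FPKM in GM and 0.645 and 1.36 FPKM at D3, and the log2 difference between the lines at D3 was 6.66 (adjusted p 0.043). Ifit genes have near-identical neighbours, so their reads may have been split among copies.

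Oasl2, of the oligoadenylate synthetase family that senses double-stranded RNA, stood at 0.527 and 6.73 FPKM in GM and 24.1 and 23.8 FPKM at D3 (log2 difference 3.54, SE 1.01, adjusted p 0.23). Ifi44, an interferon-induced antiviral protein, stood at 0.0465 and 1.43 FPKM in GM and 10.3 and 7.92 FPKM at D3. Isg15, the ubiquitin-like modifier, stood at 4.37 and 27.7 FPKM in GM and 64.2 and 92.0 FPKM at D3. Each repeated the order of GM 1 lowest, GM 2 next and the D3 libraries highest. Gbp3 and Gbp2, guanylate-binding proteins, had the smallest adjusted p-values among the interferon genes named here. Gbp3 stood at 0.670 and 1.68 FPKM in GM and 10.4 and 9.59 FPKM at D3 (log2 difference 3.11, SE 0.47, adjusted p 0.076), and Gbp2 at 2.72 and 3.16 FPKM in GM and 9.25 and 9.31 FPKM at D3 (log2 difference 1.63, SE 0.26, adjusted p 0.081). The GM libraries of Gbp2 lay close together, and the log2 change was 1.73 within replicate 1 and 1.53 within replicate 2. Both were also called between the lines at D3 (adjusted p 0.028 and 0.037).

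Transcription factors of the pathway were also higher at D3. Irf7, which amplifies interferon production, stood at 0.462 and 4.43 FPKM in GM and 9.27 and 10.8 FPKM at D3, and its exons overlap Phrf1 on the other strand. Irf9 stood at 4.62 and 8.92 FPKM in GM and 14.8 and 17.4 FPKM at D3, and was called higher than in Ctrl cells at D3 (log2 difference 2.67, adjusted p 0.024). Both factors had both D3 libraries above both GM libraries, and the exons of Irf9 overlap those of Rnf31. Ifih1, the RNA sensor MDA5, stood at 0.764 and 1.46 FPKM in GM and 2.71 and 2.18 FPKM at D3. Ddx58, the RNA sensor RIG-I, stood at 3.72 and 9.07 FPKM in GM and 17.2 and 17.2 FPKM at D3. B2m, the light chain of MHC class I, was the most abundant member at 422 and 891 FPKM in GM and 1189.8 and 1275 FPKM at D3 (log2 difference 1.01, adjusted p 0.48). The exception to the list was Tap1, the peptide transporter for MHC class I with exons that overlap Psmb9, at 2.03 and 3.86 FPKM in GM and 3.03 and 3.47 FPKM at D3.

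Interferon ligands were near the floor. Ifna1, Ifna2, Ifna4, Ifnl2 and Ifnl3 were listed at 0 in all 8 libraries, and Ifnb1 was listed at 0 in all but Cas9M3 D3 replicate 2, at 0.0908 FPKM. The receptor chain Ifnar1 stood at 21.4 and 19.8 FPKM in Cas9M3 GM and 23.1 and 20.5 FPKM at D3, and Ifnar2 at 10.3 and 10.0 FPKM and then 11.8 and 11.6 FPKM. The size of the response differed by replicate, with a median log2 change of 2.44 within replicate 1 and 1.27 within replicate 2. The gap lay between the GM libraries, where the median log2 difference of replicate 1 from replicate 2 was -1.26, against 0.02 at D3.

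**Figure D2:**
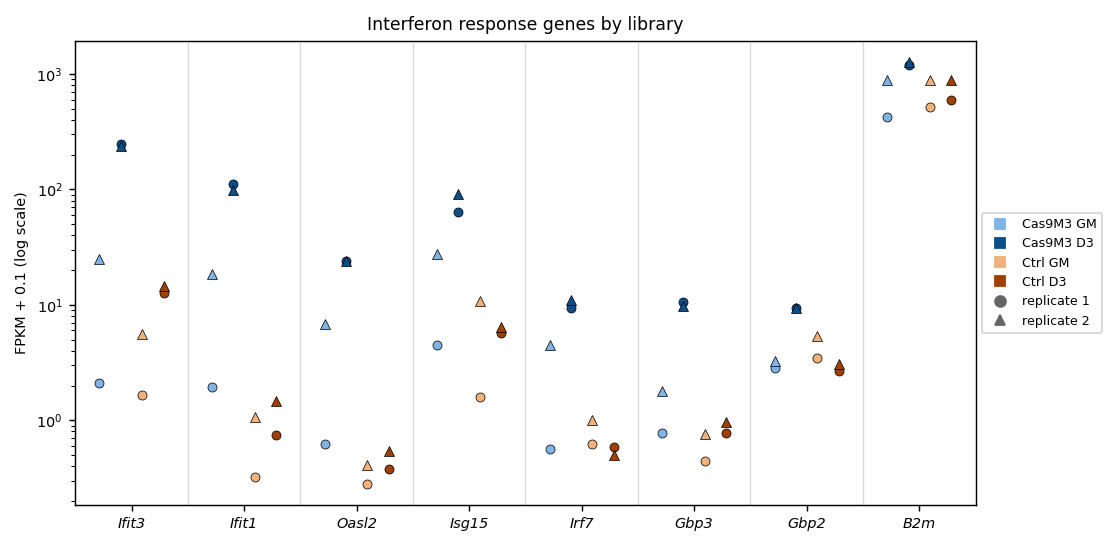
FPKM + 0.1 on a log axis for 8 interferon response genes in the 8 libraries, by group and replicate number. The Cas9M3 D3 libraries are the highest for each gene, and for Ifit3, Ifit1, Oasl2, Isg15 and Irf7 the Cas9M3 GM library of replicate 1 lies well below that of replicate 2.

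The interferon-stimulated response element, bound by factors such as Irf9, was searched on both strands after the values had been seen, as a pair of TTTC runs with any 2 bases between them. Such letters were in 56.0% of the 25 interferon promoters of 300 bases and in 3.08% of all, or 44.0% and 2.64% with the 250 bases before the start alone. The promoters of Ifit1, with one of the largest differences, and Gbp3, with the smallest p-value, are shown with these letters in capitals. They are at chr19:34640639-34640938, plus strand and at chr3:142559794-142560093, plus strand of GRCm38.p6.
Ifit1: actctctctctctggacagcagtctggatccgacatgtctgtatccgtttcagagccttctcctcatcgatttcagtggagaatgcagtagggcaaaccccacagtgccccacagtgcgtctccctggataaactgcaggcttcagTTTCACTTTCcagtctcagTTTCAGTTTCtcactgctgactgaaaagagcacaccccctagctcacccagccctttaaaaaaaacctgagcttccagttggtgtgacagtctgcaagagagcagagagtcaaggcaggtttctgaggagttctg
Gbp3: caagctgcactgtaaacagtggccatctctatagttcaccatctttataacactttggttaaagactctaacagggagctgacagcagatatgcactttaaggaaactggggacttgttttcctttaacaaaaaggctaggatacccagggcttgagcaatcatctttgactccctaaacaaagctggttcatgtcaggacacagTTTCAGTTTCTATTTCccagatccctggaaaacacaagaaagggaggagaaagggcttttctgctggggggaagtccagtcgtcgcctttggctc

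Both promoters hold 2 matches, which are apart in Ifit1 and overlap in Gbp3.

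Muscle genes did not share a direction in Cas9M3 cells. Over the 75 tested genes of the myosin, thin filament, Z disc and excitation lists, 47 (62.7%) differed in opposite directions within the 2 replicate numbers, where 32.5% of all genes did, 17 were lower in both and 11 were higher in both. In Cas9M3 GM, 67 of the 75 were higher in replicate 1 than in replicate 2, with a median log2 gap of 1.71, and in Ctrl GM 64 were, with a gap of 1.16. At Cas9M3 D3 the median gap was 0.10. The D3 libraries were therefore close to each other, and for those 47 genes the sign depended on which GM library was used.

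Myog, the factor that commits myoblasts to differentiate, shows the pattern. It stood at 12.7 and 0.182 FPKM in Cas9M3 GM and at 3.50 and 2.28 FPKM at D3, which is a log2 change of -1.83 within replicate 1 and 3.07 within replicate 2. The fitted difference of 0.62 had an SE of 1.66 (adjusted p 0.95). Ctrl cells stood at 11.1 and 2.70 FPKM in GM and 89.1 and 83.3 FPKM at D3, so both Ctrl D3 libraries were far above both Cas9M3 D3 libraries. This difference of Myog between the lines at D3 was not called (log2 difference -4.88, adjusted p 0.20 by limma). Myod1, the determination factor upstream of Myog, stood at 5.58 and 2.17 FPKM in GM and 4.55 and 4.17 FPKM at D3 (log2 difference 0.31, SE 0.41). In Ctrl cells Myod1 rose from 2.59 and 2.50 to 30.5 and 31.2 FPKM (log2 difference 3.55, adjusted p 0.026), and at D3 the log2 difference of Cas9M3 from Ctrl cells was -2.80 (adjusted p 0.034). Mef2a, a cofactor of the myogenic factors, stood at 6.30 and 4.89 FPKM in GM and 8.77 and 7.05 FPKM at D3, with Ctrl cells at 6.53 and 3.94 FPKM in GM and 28.1 and 23.7 FPKM at D3. Its exons overlap Lysmd4 on the other strand.

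Over the 16 tested myogenic and muscle transcription factors of 22 listed, the median log2 difference in Cas9M3 cells was 0.41, and none was called. Within both replicates 9 were higher and 2 lower, where 32.9% and 33.2% of all genes were. The fitted differences ran from -1.44 to 1.00, with 13 higher and 3 lower. Tead4, which is not described further, was among the 3 lower, with a difference larger in size than that of any higher member. The fitted differences of Myog, Myod1, Mef2a and Myf5 were all positive. In Ctrl cells the median was 1.02 and 3 were called higher, where 0.767% of all genes were. Myf5, the early myogenic factor, stood at 10.7 and 2.64 FPKM in Cas9M3 GM and 10.8 and 10.8 FPKM at D3. Mymk, a membrane protein required for myoblasts to fuse, stood at 11.8 and 0.613 FPKM in Cas9M3 GM and 4.58 and 3.47 FPKM at D3 and at 6.49 and 2.26 FPKM in GM and 199 and 179.9 FPKM at D3 in Ctrl cells. At D3 Mymk differed between the lines by -5.53 on the log2 scale, without being called (adjusted p 0.084 by limma). Mymx, its small partner in fusion, stood at 1.08 and 0.106 FPKM in Cas9M3 GM and 0.559 and 0.265 FPKM at D3. For both fusion genes the Cas9M3 D3 values lay between the 2 GM values. The study itself reports by RT-qPCR that fusion genes were higher in Mettl3 knockdown than in control cells at day 3. The Mymk values here lay in the other direction, and the reason was not tested.

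Cdon, a cell surface receptor that promotes differentiation, stood at 7.46 and 6.16 FPKM in Cas9M3 GM and 13.6 and 12.8 FPKM at D3, and was higher in both replicates (log2 difference 0.95, SE 0.22, adjusted p 0.15). In Ctrl cells it rose from 5.09 and 6.31 to 70.6 and 52.3 FPKM (log2 difference 3.40, adjusted p 0.014), and the difference between the changes was -2.45 (unadjusted p 0.00018). Cdh15, the M-cadherin of myoblasts, stood at 5.35 and 1.07 FPKM in GM and 4.87 and 4.50 FPKM at D3, with Ctrl cells at 1.29 and 2.04 FPKM in GM and 43.3 and 34.6 FPKM at D3.

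Several sarcomeric genes were low at D3 in Cas9M3 cells. The thin filament list summed to 530 and 431 FPKM in Cas9M3 GM and 440 and 477 FPKM at D3. In Ctrl cells that sum was 1394 and 1453 FPKM at D3. Acta1, skeletal alpha-actin, stood at 67.2 and 2.41 FPKM in GM and 10.3 and 7.89 FPKM at D3, while Ctrl cells stood at 106 and 9.24 FPKM in GM and 414 and 362 FPKM at D3. Actc1, the alpha-actin of early muscle, stood at 1.16 and 0.101 FPKM in Cas9M3 GM and 1.09 and 0.547 FPKM at D3 and rose from 0.389 and 0.192 to 95.9 and 86.1 FPKM in Ctrl cells (log2 difference 7.91, adjusted p 0.023). At D3 the log2 difference of Actc1 between the lines was -6.70 (adjusted p 0.026). Mylpf, a fast regulatory light chain, stood at 26.1 and 1.33 FPKM in GM and 6.82 and 4.87 FPKM at D3. Both Cas9M3 D3 libraries of each gene lay far below both Ctrl D3 libraries. For Acta1 and Mylpf this difference between the lines was not called (adjusted p 0.16 and 0.11 by limma). Myh3, the embryonic myosin heavy chain, stood at 0.445 and 0.0180 FPKM in GM and 0.272 and 0.180 FPKM at D3, against 39.3 and 21 FPKM at Ctrl D3. Myh1, an adult fast heavy chain, stood at 2.33 and 0.0772 FPKM in GM and 0.0847 and 0.0321 FPKM at D3, and its exons overlap the antisense transcript Myhas. Myh7, the slow heavy chain, did not reach the level for testing.

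Tnni2, the fast troponin I, stood at 2.73 and 0.509 FPKM in GM and 0.359 and 0.273 FPKM at D3, and was lower within both replicates (log2 difference -1.67, SE 0.94, adjusted p 0.58). At D3 it differed from Ctrl cells by -5.89 on the log2 scale (adjusted p 0.041). Tnni1, the slow troponin I, stood at 3.09 and 0.212 FPKM in GM and 0.568 and 0.681 FPKM at D3, between the GM values. Tnnc2, the fast troponin C, stood at 5.19 and 0.953 FPKM in GM and 0.987 and 1.02 FPKM at D3, and its exons overlap those of Ube2c on the other strand. Over the 18 tested thin filament genes the median log2 difference was -0.40, with -1.27 within replicate 1 and 0.39 within replicate 2, and 12 were opposite. The 8 tested myosin chains had a median of -0.13, with -1.39 and 1.01 within the replicates, and 6 were opposite. In Ctrl cells these medians were 3.09 and 3.28. At D3, 6 of the 18 thin filament genes were called lower in Cas9M3 than in Ctrl cells, where 0.687% of all genes were. Of the 8 myosin genes 1 was so called, as was 1 of the 26 tested Z disc, titin and M band genes. The letters CAGCTG, an E-box that myogenic factors can bind, were in 57.1% of the 14 thin filament promoters of 300 bases and in 15.1% of all.

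**Figure D3:**
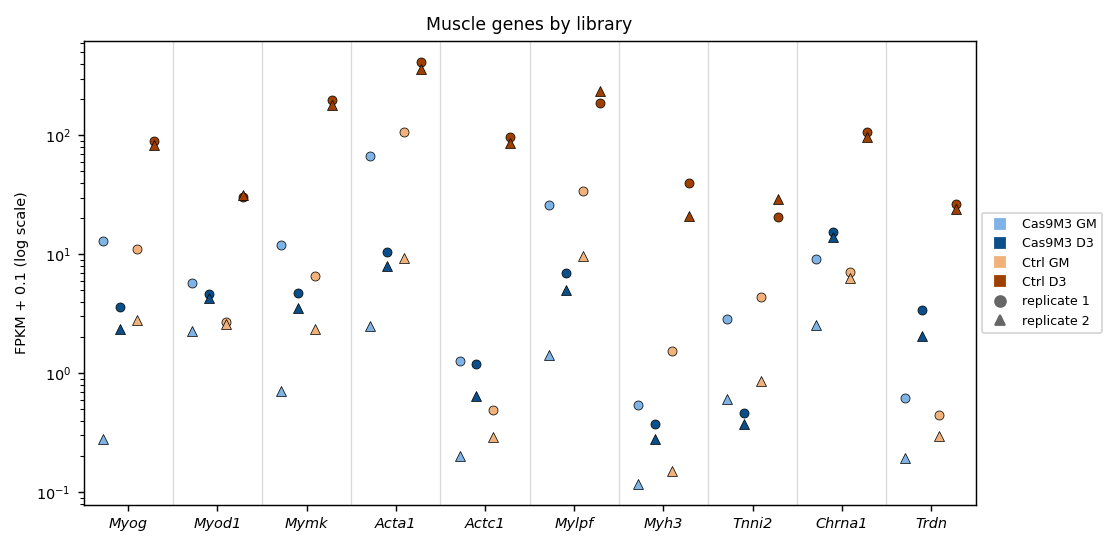
FPKM + 0.1 on a log axis for 10 muscle genes in the 8 libraries, by group and replicate number. For Myog, Mymk, Acta1 and Mylpf the Cas9M3 GM library of replicate 1 lies above and that of replicate 2 below the Cas9M3 D3 libraries, and the Ctrl D3 libraries are the highest for each gene.

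Some genes of the muscle membrane and of calcium release were higher within both replicates. Of 23 tested excitation and calcium handling genes, 6 were higher, 4 lower and 13 opposite within the replicates. Over all genes these shares were 32.9%, 33.2% and 32.5%, so being higher in both was not a feature of that list. Trdn, triadin of the calcium release complex, stood at 0.522 and 0.0932 FPKM in Cas9M3 GM and 3.30 and 1.97 FPKM at D3 (log2 difference 2.93, SE 0.58, adjusted p 0.12). Within the replicates it was 2.45 and 3.42. In Ctrl cells Trdn rose from 0.346 and 0.199 to 26.3 and 23.8 FPKM (log2 difference 6.10, adjusted p 0.021). Chrna1, the alpha subunit of the muscle acetylcholine receptor, stood at 8.96 and 2.45 FPKM in Cas9M3 GM and 15.2 and 13.8 FPKM at D3 (log2 difference 1.61, adjusted p 0.3) and rose from 7.04 and 6.19 to 106 and 95.7 FPKM in Ctrl cells. Over the 12 tested acetylcholine receptor and endplate genes, the median log2 difference was 0.53. At an unadjusted p under 0.05 there were 3 higher, where 6.14% of all genes were. Within both replicates 6 were higher, where 32.9% of all genes were. Chrng, the embryonic receptor subunit, was not among these, at 0.868 and 0.0523 FPKM in GM and 0.431 and 0.491 FPKM at D3. Atp2a1, the fast calcium pump, stood at 4.57 and 0.376 FPKM in GM and 0.382 and 0.372 FPKM at D3, with exons that overlap Rabep2 on the other strand.

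The split between the GM libraries was not limited to muscle genes. Hp, the acute-phase plasma protein haptoglobin, stood at 107 and 0.0339 FPKM in Cas9M3 GM and 8.98 and 3.69 FPKM at D3. Orm1, another acute-phase protein, stood at 367 and 12.9 FPKM in GM and 40.3 and 35.2 FPKM at D3. Serpina3n, an acute-phase protease inhibitor, stood at 1825 and 8.81 FPKM in GM and 30.0 and 30.2 FPKM at D3. In Ctrl GM Serpina3n stood at 1502 and 3.71 FPKM, so the same replicate number was high in both lines. Glul, glutamine synthetase, stood at 225 and 26.3 FPKM in Cas9M3 GM and 63.6 and 61.5 FPKM at D3. Over all genes tested, 4492 (32.5%) differed in opposite directions within the 2 replicate numbers, and 192 (1.39%) did so by at least 1 log2 unit in each. What the replicate number marks is not stated, and its part in these values was not tested.

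**Figure D4:**
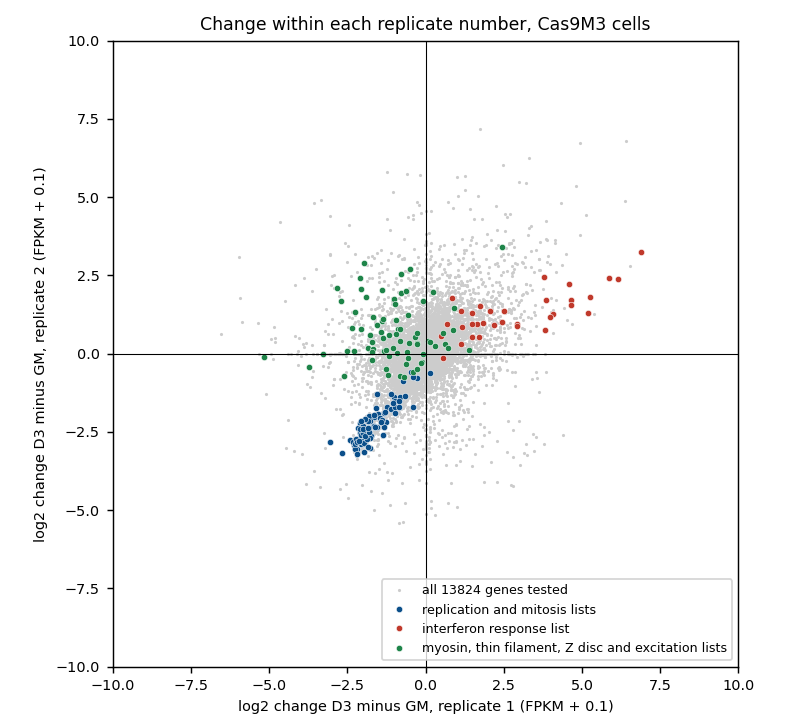
Log2 change of FPKM + 0.1 from GM to D3 in Cas9M3 cells within replicate 1 (horizontal) and within replicate 2 (vertical), 1 point per gene for all 13824 genes tested, with 3 sets of lists coloured. Replication and mitosis genes lie in the lower left, interferon genes in the upper right, and many muscle genes in the upper left, where replicate 1 is lower and replicate 2 higher at D3.

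Enzymes that make serine and other amino acids were lower at D3 in Cas9M3 cells. The integrated stress response and amino acid list had 24 tested genes. Within both replicates 14 were lower and 3 higher, against 33.2% and 32.9% of all genes. At an unadjusted p under 0.05, 8 were lower and 2 higher, against 6.5% and 6.14% of all genes. The median log2 difference was -0.56. In Ctrl cells the median was 0.53. Phgdh, the first enzyme of serine synthesis, stood at 34.7 and 34.5 FPKM in Cas9M3 GM and 14.4 and 15.2 FPKM at D3 (log2 difference -1.22, SE 0.15, adjusted p 0.067). Ctrl cells held it at 36.8 and 39.2 FPKM in GM and 39.1 and 40.0 FPKM at D3, and at D3 the lines differed by -1.41 on the log2 scale (adjusted p 0.02). Psat1, the next enzyme of that path, stood at 36.1 and 44.6 FPKM in Cas9M3 GM and 15.5 and 15.1 FPKM at D3 and at 32.8 and 38.3 FPKM in GM and 51.2 and 55.0 FPKM at D3 in Ctrl cells. The libraries of each group were close together for both enzymes.

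Asns, asparagine synthetase, stood at 16.8 and 19.4 FPKM in Cas9M3 GM and 7.81 and 9.01 FPKM at D3 (log2 difference -1.09, adjusted p 0.081). Mthfd2, of mitochondrial one-carbon metabolism, stood at 7.71 and 11 FPKM in GM and 3.75 and 4.16 FPKM at D3. Slc7a5, the transporter of large neutral amino acids, stood at 19.4 and 25.7 FPKM in GM and 8.77 and 9.67 FPKM at D3, whereas Ctrl cells had 14.4 and 13.3 FPKM in GM and 39.4 and 30.3 FPKM at D3. For Slc7a5 the log2 difference between the changes was -2.58 (unadjusted p 0.00011) and for Mthfd2 it was -2.37 (unadjusted p 0.00024). At D3, 6 of the 24 genes were called lower in Cas9M3 than in Ctrl cells, where 0.687% of all genes were, namely these 5 and Chac1, a glutathione-degrading enzyme named here after its value was seen.

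Genes that build ribosomes were lower by a small amount. For 26 of 32 tested ribosome biogenesis genes both D3 libraries lay below both GM libraries, where 24.1% of all genes did. Within both replicates 29 were lower, where 33.2% of all genes were. The median log2 difference was -0.35, and 7 were lower at an unadjusted p under 0.05, where 6.5% of all genes were. Nop56, a core protein of box C/D ribonucleoproteins, stood at 17.2 and 20.8 FPKM in Cas9M3 GM and 10.8 and 10.8 FPKM at D3 (log2 difference -0.80, adjusted p 0.14). It hosts small nucleolar RNA genes, whose reads may add to its level. Cytosolic ribosomal proteins had a median of -0.27 over 41 tested members, in Ctrl cells it was -0.95, and none of the 41 had an unadjusted p under 0.05 in Cas9M3 cells. Nuclear genes of the respiratory chain (median -0.25 over 44) and of the TCA cycle (median -0.31 over 20) lay in the same small range.

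Immediate early and serum response genes, which growth factors in serum induce, were split. Of 36 tested, 15 were lower and 8 higher within both replicates, against 33.2% and 32.9% of all genes. At an unadjusted p under 0.05, 7 were lower and 4 higher, against 6.5% and 6.14% of all genes. The median was -0.20, while the list summed to 816 and 1374 FPKM in GM and 1624 and 1633 FPKM at D3. Thbs1, the most abundant member, is not described further and was higher at D3 by more than any named member was lower. Fos, a subunit of the AP-1 factor, stood at 1.91 and 4.98 FPKM in Cas9M3 GM and 0.595 and 0.868 FPKM at D3 (log2 difference -1.96, adjusted p 0.22). Fosl1, another AP-1 subunit, stood at 17.0 and 10.7 FPKM in GM and 3.42 and 5.36 FPKM at D3, and Klf10, a growth factor-induced repressor, at 7.71 and 11.6 FPKM in GM and 3.30 and 3.19 FPKM at D3. These 3 genes had both D3 libraries below both GM libraries. Ankrd1, a target of YAP and of stretch, was higher at D3, at 41.4 and 44.5 FPKM in GM and 104 and 102 FPKM at D3 (log2 difference 1.26, adjusted p 0.08). Spry1, a feedback inhibitor of growth factor receptors, stood at 1.97 and 1.24 FPKM in GM and 6.53 and 4.99 FPKM at D3.

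Id1, which holds myogenic factors inactive by pairing with their partners, stood at 57.5 and 86.8 FPKM in Cas9M3 GM and 22.2 and 27.2 FPKM at D3 (log2 difference -1.52, SE 0.29, adjusted p 0.11). In Ctrl cells Id1 fell from 46.4 and 66.2 to 6.44 and 8.44 FPKM (log2 difference -2.89, adjusted p 0.022), and at D3 Cas9M3 cells were higher by 1.72 on the log2 scale (adjusted p 0.048). Myogenic repressors as a list had a median of -0.07 over 21 tested members. Cholesterol synthesis genes had a median of -0.31 over 33 tested members, and -0.02 and -0.55 within replicates 1 and 2. At an unadjusted p under 0.05 there were 4, all lower, where 6.5% of all genes were lower.

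In the insulin and IGF axis, members lay on both sides of 0. Igfbp3, the main carrier of IGF, stood at 28.6 and 14.5 FPKM in Cas9M3 GM and 58.7 and 69.4 FPKM at D3 (log2 difference 1.64, adjusted p 0.12). Ctrl cells stood at 23.1 and 17.9 FPKM in GM and 9.85 and 10.4 FPKM at D3, and at D3 the lines differed by 2.65 (adjusted p 0.026). Igfbp2, another binding protein, stood at 4.92 and 1.33 FPKM in GM and 11.6 and 14.2 FPKM at D3, and Irs1, which relays insulin and IGF signals, at 11.1 and 28.9 FPKM in GM and 62.9 and 51.1 FPKM at D3. Igfbp4, a binding protein that holds IGF away from its receptor, stood at 5.14 and 1.73 FPKM in GM and lower, at 0.959 and 1.00 FPKM, at D3 (log2 difference -1.52, adjusted p 0.32). The list held 19 tested members, none called, with a median of 0.12. At an unadjusted p under 0.05, 4 were higher and 2 lower, against 6.14% and 6.5% of all genes.

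Matrix genes lay on both sides of 0. Of 38 tested collagens and matrix genes, 13 were higher and 14 lower within both replicates. These counts were near the shares of 32.9% and 33.2% over all genes, and the median of the list was 0.06. Dcn, the proteoglycan decorin, stood at 14.3 and 14.9 FPKM in Cas9M3 GM and 47.7 and 43.9 FPKM at D3 (log2 difference 1.64, SE 0.19, adjusted p 0.067). Col12a1, a fibril-associated collagen, stood at 37.1 and 40.0 FPKM in GM and 94.7 and 87.8 FPKM at D3, and Col8a1, a short-chain collagen, at 5.51 and 20.0 FPKM in GM and 53.6 and 45.4 FPKM at D3. The collagens of basement membrane and fibrils were lower in part. Col15a1, a collagen at the muscle basement membrane, stood at 3.71 and 2.17 FPKM in GM and 0.469 and 0.568 FPKM at D3 (log2 difference -2.25, SE 0.32, adjusted p 0.071), while Ctrl cells had 5.01 and 4.91 FPKM in GM and 11.7 and 8.06 FPKM at D3, and its exons overlap Gm12426 on the other strand. Col5a3, of fibrillar collagen V, stood at 4.54 and 7.61 FPKM in GM and 1.19 and 1.31 FPKM at D3, and both it and Col15a1 were called lower than in Ctrl cells at D3 (adjusted p 0.028 and 0.019). Col6a1, of the microfibrillar collagen VI, stood at 374 and 433 FPKM in GM and 197 and 227 FPKM at D3.

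More cytoskeletal genes were lower than higher at D3. Of 21 tested tubulins and intermediate filament genes, 14 were lower, 3 higher and 4 opposite within the replicates, against 33.2%, 32.9% and 32.5% of all genes. At an unadjusted p under 0.05, 7 were lower and 1 higher, against 6.5% and 6.14% of all genes. None was called, and the median log2 difference was -0.72. Tubb6, a beta-tubulin, stood at 109 and 127 FPKM in Cas9M3 GM and 29.2 and 31.5 FPKM at D3 (log2 difference -1.95, SE 0.39, adjusted p 0.12). In Ctrl cells it stood at 53.2 and 125 FPKM in GM and 130.3 and 133 FPKM at D3, so the Cas9M3 D3 libraries were the lowest of the 8. Lmnb2, a B-type lamin of the nuclear envelope, stood at 11.4 and 13.3 FPKM in GM and 2.99 and 3.27 FPKM at D3. Casp1, the inflammatory caspase, was the largest difference of the apoptosis list, from 1.39 and 0.538 to 9.44 and 7.36 FPKM (log2 difference 3.11, adjusted p 0.091), and the list as a whole had a median of 0.02 over 22 tested members.

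Some glycolytic genes of the muscle energy list were lower in both replicates. Pgk1, phosphoglycerate kinase, stood at 815 and 321 FPKM in Cas9M3 GM and 231 and 220.3 FPKM at D3. Pkm, pyruvate kinase, stood at 464 and 416 FPKM in GM and 212 and 244 FPKM at D3, and Ldha, lactate dehydrogenase A, at 411 and 299 FPKM in GM and 174 and 194 FPKM at D3. Their log2 differences were -1.18, -0.95 and -0.93, and those of Ctrl cells were -0.73, -0.69 and -0.77. The 24 tested members had a median of -0.02. At an unadjusted p under 0.05, 7 were lower and none higher, against 6.5% and 6.14% of all genes. Medians near 0 were also those of myoblast fusion (-0.01 over 27), the dystrophin complex (0.11 over 12), autophagy, lysosome and atrophy (0.16 over 30), imprinted growth genes (-0.01 over 7) and the circadian clock (0.03 over 15), and no member of these lists was called.

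**Figure D5:**
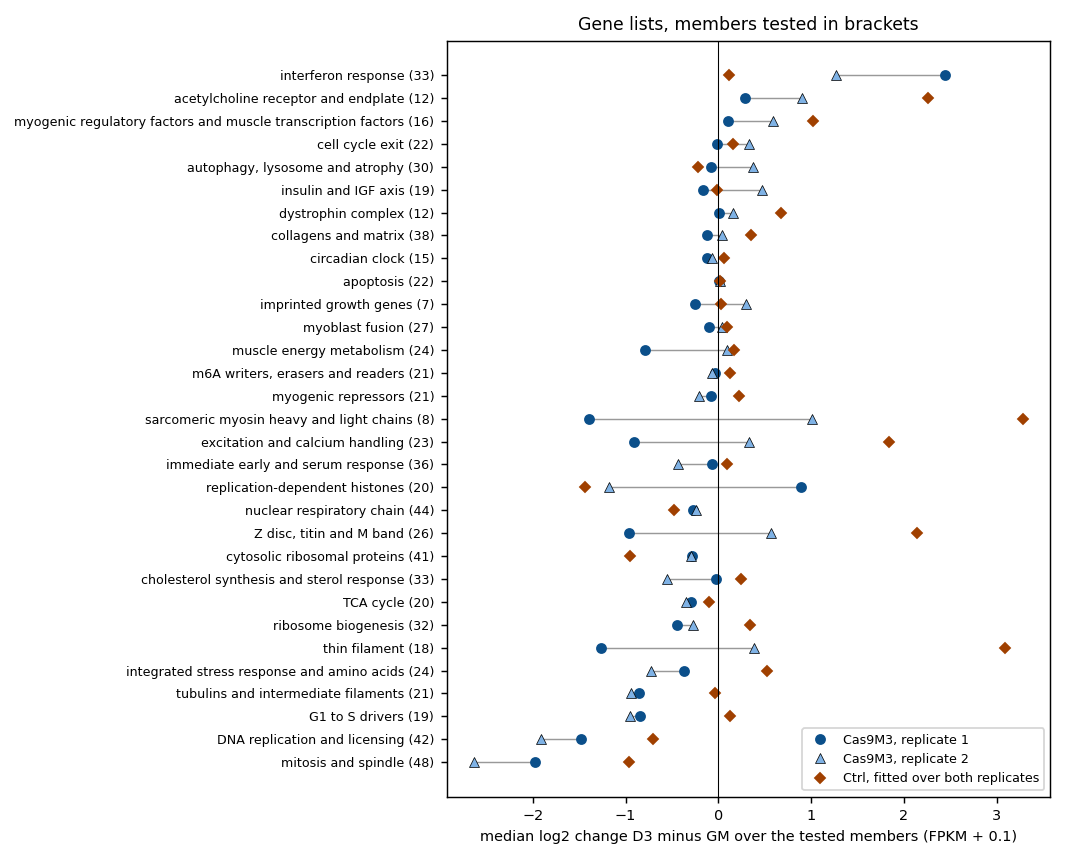
Median log2 change of FPKM + 0.1 from GM to D3 over the tested members of 31 gene lists, within replicate 1 (circles) and replicate 2 (triangles) of Cas9M3 cells and as fitted in Ctrl cells (diamonds). Mitosis and replication lists are lowest and the interferon list highest in Cas9M3 cells, and the myosin, thin filament and Z disc lists lie on opposite sides of 0 by replicate.

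The changes of Cas9M3 and Ctrl cells were compared directly as a difference of differences. By limma no gene was called at an adjusted p of 0.05 (0.0% of 13824), under this fit and under every alternative run, and 1198 genes (8.67%) had an unadjusted p under 0.05. In Ctrl cells 158 genes (1.14%) were called between D3 and GM, or 411 with the replicate block, and at D3 the lines differed in 274 (1.98%), or 505 with the block. No gene was called at D3 between the lines when any one D3 library was left out. In GM none was called between the lines by limma, with 1244 at an unadjusted p under 0.05. Among the lists, 15 of 42 replication genes and 18 of 48 mitosis genes had a lower change in Cas9M3 cells at an unadjusted p under 0.05, where 4.83% of all genes did. In the interferon list 12 of 33 had a higher change, where 3.83% of all genes did. Of 18 thin filament genes 11 had a lower change, and of 24 stress response and amino acid genes 10 did. These counts describe the lists and are not tests of them, and a greater response of any single gene in one line was not called.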

How the data were processed

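RNA was extracted with TRIzol, and libraries were made with a SMARTER mRNA kit, whose strand setting in counting is not stated. The deposited values are FPKM per gene on GRCm38 (mm10), made by the authors, with no counts used here. Over 98.8% of low values were whole multiples of a library step (tolerance 0.05), from which reads were estimated. The 13824 of 55487 genes with at least 0.5 FPKM in 2 of the 8 knockdown-table libraries were fitted together as log2(FPKM + 0.1) with limma 3.58.1 in R 4.3.3, as 4 groups with a mean-variance trend and Benjamini-Hochberg adjustment. The count model named in the study's methods was not run, since it needs counts. On simulated data for Cas9M3 D3 against GM with 13824 genes, 170 of 200 genes changed by 4 log2 units were called, with 4 unchanged genes. The simulation drew libraries independently, with 1 spread per gene for all groups. The real spreads differed by group (SD 0.973 in Cas9M3 GM, 0.594 at Cas9M3 D3, 1.30 in Ctrl GM), and same-numbered libraries deviated together. The recovery rate therefore cannot be carried over to the real libraries. Sequence and gene positions came from RefSeq and GENCODE M21, and tables and plots were made in Python 3.11.15.

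The members and gene lists were chosen with earlier results of these data known. A rule for naming took the genes the study names for differentiation and the called genes. Per list it also took the 4 largest differences, the most abundant member and called exceptions. It took 157 genes, and not all of them are described here. Of 99 genes with values in the text table, 39 were chosen outside this rule after their values were seen. The labels do not say what the replicate number marks. Deviations of same-numbered libraries from their group means correlated at 0.279 to 0.680 over genes in all 6 pairs of groups, 0.286 for Cas9M3 GM with D3, so the block was also fitted. Fold values on this scale understate changes of low genes. Alternatives covered the pseudocount, filter, scaling, block, trend, samples in the fit and each library left out. Those restricted to protein-coding genes or with library weights, and the interferon promoter letters, were chosen after seeing the data. One item is not reported here.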

Additional observations from a re-analysis of the deposited data

How the results depend on the processing

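The count of 4 genes called between Cas9M3 D3 and GM was 94 with a pseudocount of 1, 2 with 0.01, 16 with no filter on low values, 32 after quantile normalization, 84 with no mean-variance trend, and 0 with libraries rescaled to a common sum or with only the 2 groups compared. With the replicate block it was 9. With alternatives chosen after seeing the data it was 87 for protein-coding genes alone, 469 with library weights and 774 with library weights and the replicate block. Leaving out each library gave 0 to 502, with 502 without Ctrl GM replicate 1, 494 without Ctrl GM replicate 2, 2 without Cas9M3 GM replicate 2 and 0 without any one of the other 5, and the group left with 1 library was assumed to vary like the others. The cause of these shifts was not tested.

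In Ctrl cells the 158 calls became 254 with a pseudocount of 1, 105 with no filter, 4 with a common sum, 0 with only the 2 groups, 96 with a log2 threshold of 2 added, 247 for protein-coding genes, 2 with library weights and 39 with weights and block. The replicate block gave 411, and leaving out each library gave 0 to 3684, with 3684 without Ctrl GM replicate 1, 101 without Cas9M3 GM replicate 1, and 0 without either D3 library of either line. The 274 calls between the lines at D3 were 453 with a pseudocount of 1, 442 with no trend, 2 with a common sum, 505 with the replicate block, 471 for protein-coding genes, 3325 with library weights, 5251 with weights and block, and 0 to 883 with a library left out, 0 being without any one D3 library and 878 and 883 without Ctrl GM replicate 1 and 2. Between the lines in GM 24 were called without Ctrl GM replicate 1 and 1 with no trend, against 0. No gene was called for the difference between the lines' changes under any of these. Rescaling to a common sum moved the median log2 value of all genes to 0.73 in Ctrl cells and to 0.04 in Cas9M3 cells.

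The median of the DNA replication list was -1.34 with a pseudocount of 1 and -1.89 to -1.37 with a library left out, the -1.37 being without Cas9M3 GM replicate 2. With a library left out the mitosis median was -2.63 to -1.92, the interferon median 1.18 to 2.40, the thin filament median -1.38 to 0.48 and the myosin median -1.54 to 1.14. Over the alternatives other than leaving out a library, called members ranged from 0 to 34 for replication, 0 to 47 for mitosis and 0 to 14 for interferon genes. Over all genes the count ranged from 0 to 774 under the same alternatives.

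Of 2078 values for 99 named genes under alternatives, 1776 kept direction and call, 238 were newly called, 34 lost their call and 30 turned in direction, 23 of them by leaving out a library. The log2 difference turned without Cas9M3 GM replicate 2 for Orc6, Myog, Myod1, Mymk, Cdh15, Actc1, Mybph, Myh3, Chrng and Hp, and without Cas9M3 GM replicate 1 for Tap1, Mymx, Acta1, Mylpf, Tnni1, Tnnc2, Atp2a1, Serpina3n, Orm1 and Glul. Mylpf and Mymx also turned without Cas9M3 D3 replicate 2, and Hp without Cas9M3 D3 replicate 1. The ranges with a library left out were Orc6 -0.67 to 0.19, Tap1 -0.24 to 0.65, Myog -2.13 to 3.37, Myod1 -0.35 to 0.98, Mymk -1.54 to 2.52, Mymx -1.27 to 1.25, Cdh15 -0.19 to 2.03, Acta1 -2.89 to 1.86, Actc1 -0.52 to 2.12, Mylpf -2.16 to 2.03, Mybph -2.19 to 3.10, Myh3 -0.75 to 1.45, Tnni1 -2.14 to 1.21, Tnnc2 -2.26 to 0.068, Chrng -0.79 to 1.88, Atp2a1 -3.29 to 0.0029, Serpina3n -5.92 to 1.76, Orm1 -3.28 to 1.54, Hp -4.19 to 5.45 and Glul -1.84 to 1.25. With a pseudocount of 1 the values of Myog, Mybph and Hp were -0.068, -0.24 and -0.63. Mymx was 0.15 with a pseudocount of 0.01, 0.0038 with median-ratio scaling and 0.12 with a common sum, and Myh3 was -0.23 after quantile normalization. Mucl1 (adjusted p 0.0752, limma) and Socs2 missed the threshold with a pseudocount of 0.01, and Socs2 with median-ratio scaling (0.0507). Depth was not tested as a limit on the counts. For Cas9M3 D3 against GM the replicate block added 5 calls and lost none.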
